A study of Rattus norvegicus with 14 samples.

Results

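The genes examined here encode the main apolipoproteins that hepatocytes make: Apoa1, Apoa2, Apoa4, Apoa5, Apob, Apoc1, Apoc2, Apoc3, Apoe and Apom. The rule takes them by name and uses no measured value, although the list was drawn up with earlier results of these data known. They are 10 of the 14497 genes with a probe set of their own on the array. Each was measured by 1 probe set, so every member is accounted for and none was filtered out.

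RNA came from liver of male F344 rats, an inbred strain, that had been fixed in formalin and embedded in paraffin. The captured regions were cut from stained sections by laser microdissection, and 150 ng of RNA per sample was amplified and hybridised to Affymetrix Rat Gene ST 1.0 arrays, whose probes lie along the whole transcript. There were 4 groups of 3 animals, on 14 arrays in all. Normal liver was that of adult rats with no manipulation. AAF/PH liver was that of rats with a 2.5 mg pellet of 2-acetylaminofluorene (AAF, which blocks hepatocyte division) placed on day 1 with a release time of 14 days, a partial hepatectomy on day 7 and death on day 14, and the labels give oval cells, small progenitor-like cells of the liver, as its feature. Foci came from the Solt-Farber (SF) model of liver cancer. Those rats received diethylnitrosamine at 200 mg/kg on day 1, the AAF pellet on day 14 and a partial hepatectomy on day 21, together with a pellet that released placebo or rapamycin, an inhibitor of the growth kinase mTOR, at 2.5 mg/kg per day for 21 days. Their persistent lesions, chosen by staining for the placental glutathione S-transferase GSTP, were captured on day 70. All 3 manipulated groups therefore share AAF and hepatectomy, both kinds of foci also share diethylnitrosamine, and no group had AAF or hepatectomy alone. The time since hepatectomy was not shared. In AAF/PH liver it ran from day 7 to day 14, and in foci from day 21 to day 70. In comparisons of foci with AAF/PH liver, time and kind of tissue cannot be told apart.

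Apolipoproteins are the proteins that wrap lipid into particles that travel in blood. Apolipoprotein B is the scaffold of very-low-density lipoprotein (VLDL), A-I and A-II are the scaffold of high-density lipoprotein (HDL), and the small exchangeable proteins C-I, C-II, C-III, A-V and E move between particles and set how fast lipases and receptors act on them. Hepatocytes make nearly all of them, with A-IV and part of A-I also coming from the intestine, and hepatocyte nuclear factors such as HNF4A drive many of their genes.

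Several of these genes lie side by side. In the RefSeq gene table of the assembly GRCr8, Apoa1, Apoc3, Apoa4 and Apoa5 follow each other on chromosome 8 and Apoc2, Apoc4, Apoc1 and Apoe on chromosome 1, with no other gene between them. The bases before the gene start were looked up in RefSeq promoters of GRCr8, in which 6 of the 10 members matched (Apoa4, Apoa5, Apoc1, Apoc2, Apoe and Apom). Apoa1, Apoa2, Apob and Apoc3 were not matched. The 4 sequences printed here belong to the neighbours whose changes lay farthest apart in AAF/PH liver, Apoa4 beside Apoa5 and Apoc1 beside Apoe, a choice made after their values were seen. Each is the 250 bases before the start, read 5′ to 3′ on the gene's own strand, and where a gene had several listed starts the most upstream was taken. The windows are chr8:55435529-55435778 on the plus strand for Apoa4, chr8:55457621-55457870 on the plus strand for Apoa5, chr1:88478306-88478555 on the minus strand for Apoc1 and chr1:88485817-88486066 on the minus strand for Apoe. Capitals mark any match, on either strand, to TATAAA (the TATA box), AGGTCA (a half-site of nuclear receptors), CAAAGTCCA (a form of the HNF4 site) or GTTAAT (a half-site of HNF1).
Apoa4: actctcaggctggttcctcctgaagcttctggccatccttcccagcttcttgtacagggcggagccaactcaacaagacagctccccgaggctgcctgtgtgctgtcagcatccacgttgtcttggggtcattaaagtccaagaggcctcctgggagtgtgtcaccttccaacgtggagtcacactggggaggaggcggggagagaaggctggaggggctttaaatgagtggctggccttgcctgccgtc
Apoa5: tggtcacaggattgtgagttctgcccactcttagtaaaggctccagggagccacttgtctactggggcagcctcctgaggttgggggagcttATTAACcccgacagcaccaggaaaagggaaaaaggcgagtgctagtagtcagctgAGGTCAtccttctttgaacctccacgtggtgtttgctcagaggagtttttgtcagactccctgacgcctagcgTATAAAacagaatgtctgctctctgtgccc
Apoc1: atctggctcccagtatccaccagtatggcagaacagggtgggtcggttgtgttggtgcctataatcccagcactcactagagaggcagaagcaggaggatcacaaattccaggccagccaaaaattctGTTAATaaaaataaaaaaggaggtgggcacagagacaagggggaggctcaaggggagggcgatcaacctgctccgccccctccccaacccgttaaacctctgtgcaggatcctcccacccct
Apoe: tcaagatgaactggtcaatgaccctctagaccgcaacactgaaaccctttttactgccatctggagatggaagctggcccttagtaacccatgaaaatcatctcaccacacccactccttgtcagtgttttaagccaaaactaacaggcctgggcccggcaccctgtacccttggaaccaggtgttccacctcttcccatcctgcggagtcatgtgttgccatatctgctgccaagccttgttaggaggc
The Apoa5 window held TATAAA as well as AGGTCA and, on the opposite strand, GTTAAT. The Apoc1 window held GTTAAT alone, and none of the motifs was found in the Apoa4 and Apoe windows. Of the members not printed, Apoc2 held TATAAA and Apom held GTTAAT. No match overlapped another. Among 27457 promoter windows of this length, 13.1% held TATAAA, 13.6% AGGTCA, 0.339% CAAAGTCCA and 6.49% GTTAAT. These matches are descriptions of the letters in the window only.

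Values below are array intensities on the linear scale as deposited, given for animals 1, 2 and 3 of a group in that order. Differences are on the log2 scale, ± the standard error of the fit with n = 3 animals per group, and a gene was called when its limma p-value, adjusted by the Benjamini-Hochberg method over all 14497 genes, was under 0.05. The number of animals limits the precision, since an exact permutation test of 3 animals against 3 cannot go below p = 0.1. Rapamycin animal 3, averaged over 3 arrays, stood apart: the interquartile range of log2 intensity was 1.57 to 1.71 on its arrays and 1.98 to 2.80 on the others. It was also the lowest of its group in every one of the 10 genes, so values without it are given where it changed a call or moved a difference of rapamycin foci by over 1.5 times. The interquartile range differed between other groups too. It was 2.80, 2.36 and 2.69 in normal liver and 2.12, 1.98 and 2.26 in AAF/PH liver, without overlap. In placebo foci it was 2.18, 2.14 and 2.61. The part of this spread in the differences from normal was not tested beyond the rescaling given below. The 3 comparisons with normal liver share the same control animals.

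In AAF/PH liver all 10 apolipoprotein genes fell below normal liver, by 1.61-fold for Apoa5 to 15.1-fold for Apoc1. In placebo foci 7 of the 10 fell, by less for most of them, and Apoa1 was not among them. In rapamycin foci 4 fell, Apoa4, Apoa5, Apoc2 and Apom. Over all genes tested, 12.5% were called lower in AAF/PH liver, 5.38% in placebo foci and 4.93% in rapamycin foci, and 7.54%, 2.84% and 1.6% were called higher, with 0 members among these. The median log2 difference of the 10 genes was -2.30 in AAF/PH liver, -1.48 in placebo foci and -0.85 in rapamycin foci, against 0.12, 0.039 and 0.068 over all genes. Scaling every array to a common interquartile range moved the median of all genes in AAF/PH liver to -0.11 and left 8 of the 10 members called. Under the same scaling 6 were called in placebo foci and 2 in rapamycin foci, where Apoa4 and Apom kept the call, Apoa5 had -0.48 (adjusted p = 0.0751) and Apoc2 -0.59 (adjusted p = 0.103). The rapamycin difference from normal then turned positive for Apob (0.10), Apoc1 (0.059) and Apoe (0.31), none of them called. Centring each array on its median turned the split of calls in AAF/PH liver from 1807 lower and 1093 higher to 2092 and 522, and that in rapamycin foci from 715 and 232 to 781 and 87. Array quality weights, whose estimate did not fully converge, gave 3770 lower and 4226 higher in AAF/PH liver and 724 and 421 in rapamycin foci, and leaving out rapamycin animal 3 gave 2850 and 2358, and 563 and 405.

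**Figure D1:**
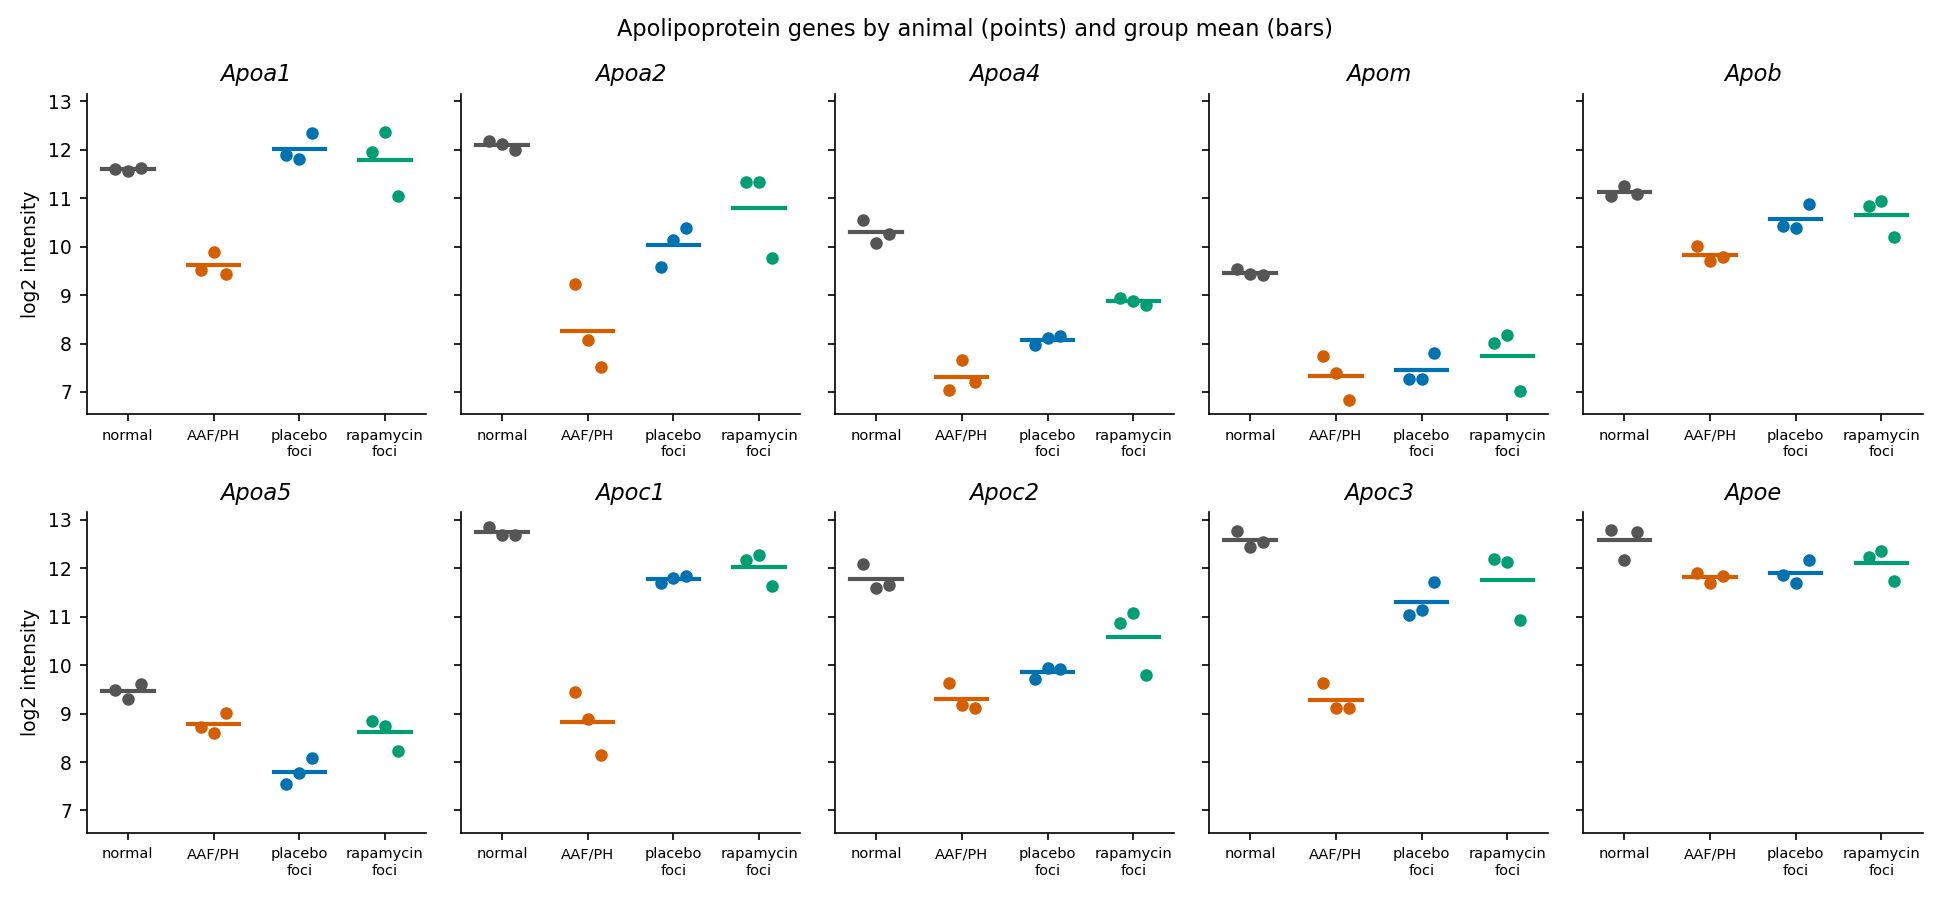
Log2 intensity (vertical axes, shared) of the 10 genes by group. Each point is 1 animal and each bar the mean of 3 animals. All AAF/PH points lie below the normal livers in each of the 10 panels, while the placebo points of Apoa1, from 3582 to 5203 on the linear scale, lie above them. The share of all genes without overlap between these groups was not counted, so nothing about the members as a set is read from this separation.

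The structural proteins of HDL came first. Apoa1, which encodes the main HDL protein and activates the enzyme that esterifies HDL cholesterol, stood at 3097, 3044 and 3178 in normal liver, 737, 943 and 693 in AAF/PH liver, 3796, 3582 and 5203 in placebo foci and 3992, 5323 and 2127 in rapamycin foci. Every AAF/PH animal lay below every other animal of the study, and all 3 placebo animals lay above all 3 normal ones. Apoa1 fell in AAF/PH liver, with a difference of -1.99 ± 0.27 from normal (3.96-fold lower, adjusted p = 0.00016). Its difference in placebo foci, 0.41 ± 0.27 with a 95% interval of -0.17 to 1.00, did not pass the test (adjusted p = 0.443). It was 5.28-fold higher in placebo foci than in AAF/PH liver (2.40 ± 0.27, adjusted p = 0.000124), and 4.55-fold higher in rapamycin foci than there (2.18 ± 0.27, adjusted p = 0.000267). In rapamycin foci the difference from normal was 0.20 ± 0.27 (adjusted p = 0.625), 0.57 without animal 3 and -0.092 without animal 2.

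Apoa2 encodes the second HDL protein. Its intensity was 4668, 4429.7 and 4063 in normal liver, 599.8, 268 and 182 in AAF/PH liver, 762, 1127 and 1344 in placebo foci and 2594, 2572 and 866 in rapamycin foci. The order of the groups, normal liver over both kinds of foci over AAF/PH liver, held without overlap except between the foci, where rapamycin animal 3 lay among the placebo animals. Apoa2 fell 14.2-fold in AAF/PH liver (-3.83 ± 0.43, adjusted p = 3.03e-05) and 4.18-fold in placebo foci (-2.06 ± 0.43, adjusted p = 0.00733). In rapamycin foci its difference from normal, -1.29 ± 0.43, missed the threshold (adjusted p = 0.0867). That value was -0.76 without rapamycin animal 3 (adjusted p = 0.231) and -1.55 without animal 2 (adjusted p = 0.0413). Against AAF/PH liver it was higher by 1.77 ± 0.43 in placebo foci (adjusted p = 0.0315) and by 2.54 ± 0.43 in rapamycin foci (adjusted p = 0.00292). The former call was lost in 9 of 25 alternative settings. Among them were those that left out normal animal 3, AAF/PH animal 2 or 3 or any placebo animal (adjusted p from 0.0509 to 0.159).

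Apoa4, made in gut and liver and carried on HDL and chylomicrons, separated all 4 groups. It stood at 1508, 1079 and 1226 in normal liver, 132, 202 and 147 in AAF/PH liver, 252, 277 and 284 in placebo foci and 492, 471 and 444 in rapamycin foci. No group overlapped another, and within both kinds of foci the animals lay close together, rapamycin animal 3 included. The fall from normal was 7.98-fold in AAF/PH liver (-3.00 ± 0.19, adjusted p = 3.29e-07), 4.65-fold in placebo foci (-2.22 ± 0.19, adjusted p = 6.95e-06) and 2.69-fold in rapamycin foci (-1.43 ± 0.19, adjusted p = 0.000752). Both kinds of foci were above AAF/PH liver, placebo by 0.78 ± 0.19 (adjusted p = 0.0315) and rapamycin by 1.57 ± 0.19 (adjusted p = 0.000197). The call for placebo foci was lost in 10 of 25 alternative settings. Among them were those without normal animal 3, AAF/PH animal 1 or 3 or any placebo animal (adjusted p from 0.0549 to 0.139).

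Apom encodes an HDL protein that carries sphingosine-1-phosphate. Its intensity was 742, 697 and 679.7 in normal liver, 215, 167 and 115 in AAF/PH liver, 155, 153 and 223 in placebo foci and 258, 288 and 129.8 in rapamycin foci. The manipulated groups overlapped one another and none reached the normal livers. Apom fell in all of them, 4.40-fold in AAF/PH liver (-2.14 ± 0.29, adjusted p = 0.00014), 4.05-fold in placebo foci (-2.02 ± 0.29, adjusted p = 0.000551) and 3.32-fold in rapamycin foci (-1.73 ± 0.29, adjusted p = 0.00374). The difference of placebo foci from AAF/PH liver was 0.12 with a 95% interval of -0.50 to 0.74, and that of rapamycin foci 0.41 with an interval of -0.22 to 1.03. Without rapamycin animal 3 the latter was 0.76 and passed the test (adjusted p = 0.0326).

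Apob, the scaffold of VLDL and low-density lipoprotein, changed less than most of the group. It stood at 2110.5, 2432 and 2179 in normal liver, 1032, 829.9 and 883 in AAF/PH liver, 1384, 1344 and 1889 in placebo foci and 1823, 1960.3 and 1175 in rapamycin foci. Both kinds of foci lay between AAF/PH and normal liver, without overlap with either, and overlapped each other. Apob fell 2.46-fold in AAF/PH liver (-1.30 ± 0.21, adjusted p = 0.000657). Its differences from normal of -0.56 ± 0.21 in placebo foci (adjusted p = 0.144) and -0.47 ± 0.21 in rapamycin foci (adjusted p = 0.177) did not pass. The latter was -0.24 without rapamycin animal 3 and 0.10 under a common interquartile range. The placebo difference passed once rapamycin animal 3 was left out of the shared fit (adjusted p = 0.026). Against AAF/PH liver, placebo foci were 0.74 ± 0.21 higher (adjusted p = 0.0695; 0.00562 without rapamycin animal 3) and rapamycin foci 0.82 ± 0.21 higher (adjusted p = 0.0426). The rapamycin call was lost in 15 of 25 alternative settings. It held without placebo animal 3 and without rapamycin animal 3 (1.05, adjusted p = 0.000595). It was lost when any of the 10 other animals was left out (adjusted p from 0.0576 to 0.185).

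Apoa5, which promotes the clearance of triglyceride by lipoprotein lipase, had a pattern of its own. Its intensity was 718, 632 and 783 in normal liver, 420.4, 388 and 518 in AAF/PH liver, 186, 219.8 and 270.0 in placebo foci and 459.9, 430.3 and 302 in rapamycin foci. The placebo foci, not AAF/PH liver, held the lowest animals, all 3 below every animal of the other groups, while AAF/PH liver and rapamycin foci overlapped. Between those 2 groups the rapamycin difference was -0.17, and 0.020 without rapamycin animal 3. Apoa5 fell 3.18-fold in placebo foci (-1.67 ± 0.21, adjusted p = 0.00017) and 1.81-fold in rapamycin foci (-0.86 ± 0.21, adjusted p = 0.0252). In AAF/PH liver it fell 1.61-fold (-0.69 ± 0.21, adjusted p = 0.0302). It was the 1 member called lower in placebo foci than in AAF/PH liver (-0.98 ± 0.21, adjusted p = 0.0138), where 1.57% of all genes were. The AAF/PH call was lost in 8 of 25 alternative settings. Among them were those without normal animal 1 or 3 or AAF/PH animal 1 or 2 (adjusted p from 0.0901 to 0.119), and quantile normalization took the difference to -0.23. The rapamycin call was lost in 6 of the 25 settings, among them those without normal animal 1 or 3 (adjusted p of 0.112 and 0.124). The placebo call against AAF/PH liver was lost in 5, among them those without AAF/PH animal 3 or placebo animal 1 or 2 (adjusted p from 0.0552 to 0.0825).

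Apoc1, which restrains uptake of triglyceride-rich remnants, had the largest estimated fall of the 10 genes in AAF/PH liver, ahead of Apoa2 by less than the standard error of either. It stood at 7454, 6582 and 6583 in normal liver, 699.9, 473 and 283 in AAF/PH liver, 3331, 3556 and 3667 in placebo foci and 4621, 4955 and 3168 in rapamycin foci. The AAF/PH animals were far below every focus, and the foci were below every normal liver. The fall in AAF/PH liver was 15.1-fold (-3.92 ± 0.27, adjusted p = 3.91e-07), and the one in placebo foci 1.95-fold (-0.96 ± 0.27, adjusted p = 0.0383). In rapamycin foci the difference was -0.72 ± 0.27 (adjusted p = 0.12), and a common interquartile range turned its direction, to 0.059 (adjusted p = 0.937). Apoc1 was 7.74-fold higher in placebo foci than in AAF/PH liver (2.95 ± 0.27, adjusted p = 2.7e-05) and 9.18-fold higher in rapamycin foci (3.20 ± 0.27, adjusted p = 1.27e-05). The call against normal in placebo foci was lost in 11 of 25 alternative settings. Among them were those without any 1 of the normal or placebo animals or AAF/PH animal 2 (adjusted p from 0.0555 to 0.158). The difference was -0.50 under a common interquartile range (adjusted p = 0.543).

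Apoc2 encodes the activator of lipoprotein lipase. Its intensity was 4337, 3089 and 3240.0 in normal liver, 792, 583 and 553 in AAF/PH liver, 841, 991 and 972 in placebo foci and 1869, 2152 and 891 in rapamycin foci. The placebo animals lay just above those of AAF/PH liver, while rapamycin animals 1 and 2 lay between them and normal liver and animal 3 among the placebo animals. Apoc2 fell 5.54-fold in AAF/PH liver (-2.47 ± 0.28, adjusted p = 3.21e-05), 3.77-fold in placebo foci (-1.91 ± 0.28, adjusted p = 0.000626) and 2.30-fold in rapamycin foci (-1.20 ± 0.28, adjusted p = 0.0212). The last of these was lost in 5 of 25 alternative settings, among them those without normal animal 1 or 3 (adjusted p of 0.13 and 0.0714). Against AAF/PH liver, placebo foci differed by 0.55 ± 0.28, which did not pass (adjusted p = 0.376), and rapamycin foci were 2.41-fold higher (1.27 ± 0.28, adjusted p = 0.0183). This call was lost in 7 of the 25 settings, among them those without AAF/PH animal 2 or 3 or rapamycin animal 1 or 2 (adjusted p from 0.0773 to 0.0973).

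Apoc3, which inhibits lipoprotein lipase and hepatic clearance of remnants, stood at 6998, 5526 and 6014 in normal liver, 789.8, 552 and 552 in AAF/PH liver, 2107, 2259.7 and 3356 in placebo foci and 4691, 4494 and 1948 in rapamycin foci. All foci lay between the other groups, and rapamycin animal 3 lay below the placebo animals. Apoc3 fell 9.88-fold in AAF/PH liver (-3.31 ± 0.30, adjusted p = 4.62e-06) and 2.44-fold in placebo foci (-1.29 ± 0.30, adjusted p = 0.0146). In rapamycin foci the difference was -0.83 ± 0.30 (adjusted p = 0.108), -0.42 without animal 3 (adjusted p = 0.335) and -1.02 without animal 2 (adjusted p = 0.0485). The placebo call was lost without normal animal 1 or 3 or placebo animal 1 or 2 (adjusted p from 0.0542 to 0.0835). Apoc3 was 4.05-fold higher in placebo foci than in AAF/PH liver (2.02 ± 0.30, adjusted p = 0.00109) and 5.55-fold higher in rapamycin foci (2.47 ± 0.30, adjusted p = 0.000202).

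Apoe, the ligand by which receptors take up remnants, is made by many cell types besides hepatocytes, macrophages among them. It stood at 7127, 4619 and 6944 in normal liver, 3832, 3319 and 3661 in AAF/PH liver, 3720.3, 3325 and 4629.9 in placebo foci and 4836, 5222 and 3419.5 in rapamycin foci. The 3 manipulated groups overlapped one another, and normal animal 2 lay within the range of the foci. Apoe fell 1.70-fold in AAF/PH liver (-0.77 ± 0.22, adjusted p = 0.0233). The differences of -0.67 ± 0.22 in placebo foci (adjusted p = 0.0826) and -0.47 ± 0.22 in rapamycin foci (adjusted p = 0.188) did not pass. The latter was -0.28 without rapamycin animal 3 and 0.31 under a common interquartile range. The AAF/PH call was lost in 6 of 25 alternative settings. Under a common interquartile range the AAF/PH difference was -0.021 (adjusted p = 0.972), and the call was also lost without normal animal 1 or 3 or AAF/PH animal 2 or 3 (adjusted p from 0.0555 to 0.116). The placebo difference passed without normal animal 2 (-0.87, adjusted p = 0.0301) or rapamycin animal 3 (adjusted p = 0.0164). Placebo and rapamycin foci differed from AAF/PH liver by 0.10, with a 95% interval of -0.37 to 0.57, and by 0.30, with an interval of -0.17 to 0.76 (0.48 without rapamycin animal 3).

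**Figure D2:**
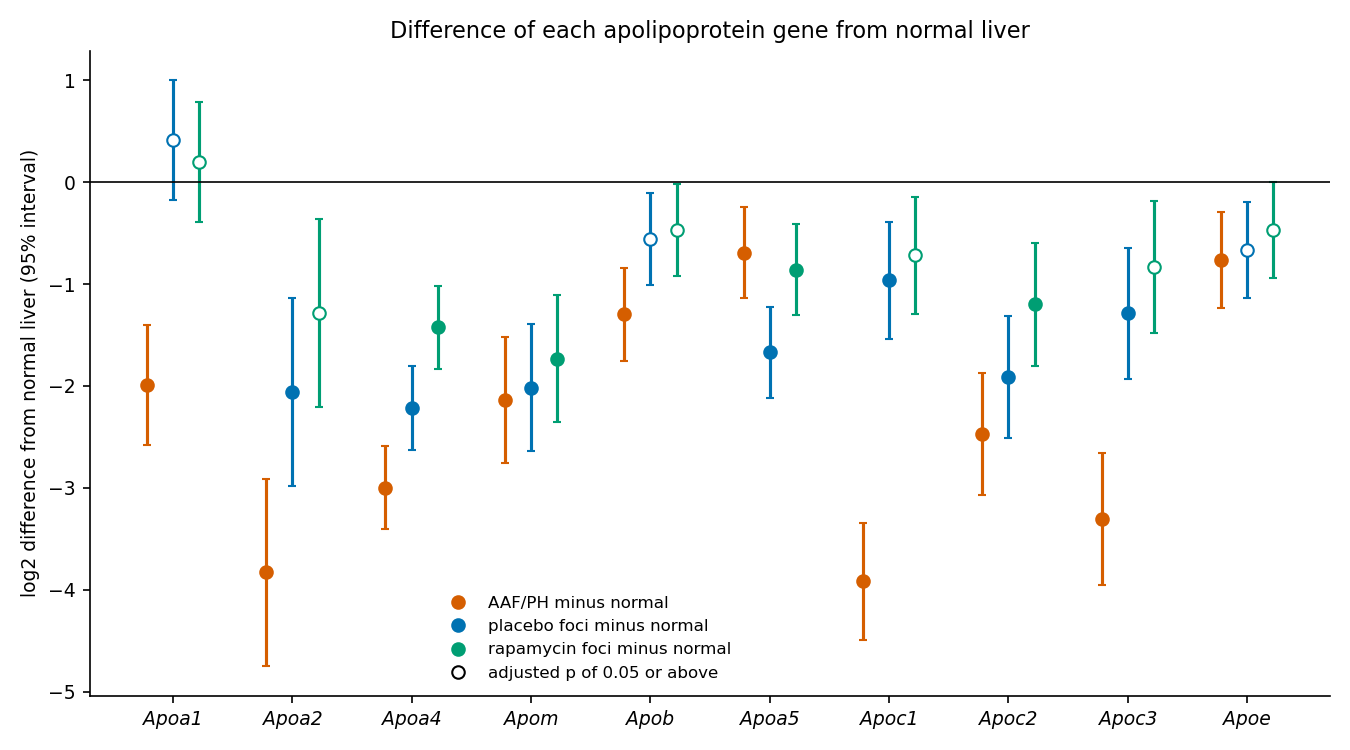
Log2 difference of each gene from normal liver (vertical axis) in AAF/PH liver, placebo foci and rapamycin foci, with 95% intervals of the limma fit, 3 animals per group. Open circles have an adjusted p of 0.05 or above. Apoc1, Apoa2 and Apoc3 lie below -3 in AAF/PH liver and above it in foci, Apom lies near -2 in both AAF/PH liver and placebo foci, and Apoa1 lies above 0 in foci.

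Set directly against AAF/PH liver, 5 of the 10 genes were higher in placebo foci (Apoa1, Apoa2, Apoa4, Apoc1 and Apoc3), where 2.62% of all genes were. In rapamycin foci 7 were higher, those 5 with Apob and Apoc2, where 2.14% of all genes were. The median difference of the 10 genes was 0.76 and 1.42, against -0.053 and -0.013 over all genes. These comparisons share the AAF/PH animals, and the time since hepatectomy differs between AAF/PH liver and foci. Leaving out normal animal 3, AAF/PH animal 3 or any 1 placebo animal took the placebo count to 3.

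Of the 6 pairs of neighbours in these clusters, 5 had a log2 ratio that did not overlap between AAF/PH and normal animals. Apoc3 beside Apoa4 did overlap (-0.31, exact permutation p = 0.4). The share of other gene pairs without overlap was not counted, so nothing about the clusters was read from this count. In the chromosome 1 cluster, the log2 ratio of Apoc1 to its neighbour Apoe differed by -3.15 between AAF/PH and normal liver, with standard deviations of 0.64 and 0.31 among the AAF/PH and the normal animals. In placebo and rapamycin foci the same ratio differed from normal by -0.30 and -0.25, with overlap between the animals. Apoc4, which lies between Apoc2 and Apoc1 and encodes a minor VLDL protein, gave 2329, 2112 and 2014 in normal liver and 885, 606 and 537 in AAF/PH liver, a difference of -1.70 ± 0.25 (adjusted p = 0.000253). The ratio of Apoc4 to Apoc1 was 2.22 higher in AAF/PH liver than in normal liver, and that of Apoc2 to Apoc4 differed by -0.77. In the chromosome 8 cluster, the ratio of Apoa4 to Apoa5 differed by -2.31 in AAF/PH liver and by -0.55 in placebo foci, and the ratio of Apoa1 to Apoc3 by 1.32 and 1.70. For each of these 5 ratios in AAF/PH liver the animals of both groups did not overlap and the exact permutation p was 0.1, the smallest the design allows, 2-sided. The windows printed above for Apoc1 and Apoe, and for Apoa4 and Apoa5, belong to these pairs.

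**Figure D3:**
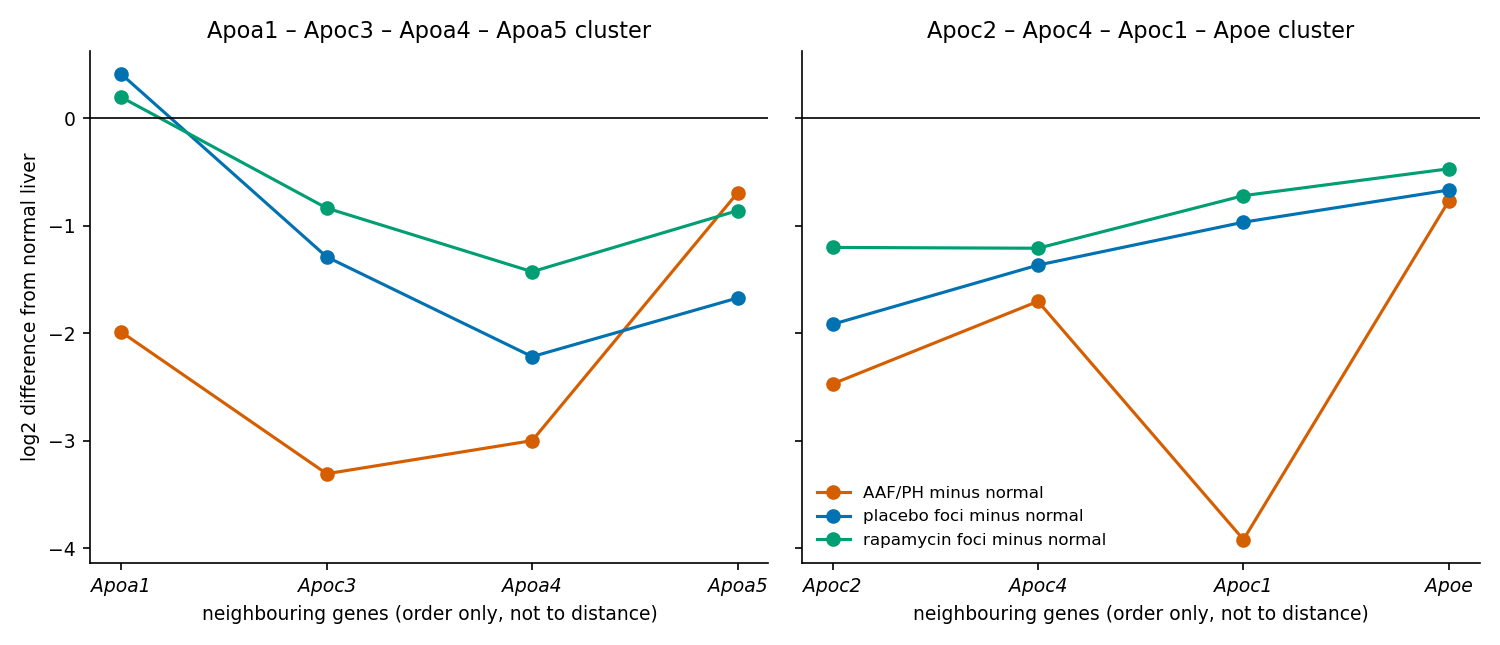
Log2 difference from normal liver (vertical axis) of genes in their order along each of the clusters (horizontal axis, not to distance), 3 animals per group. In AAF/PH liver Apoc1 lies at -3.92 beside Apoe at -0.77, and Apoa4 at -3.00 beside Apoa5 at -0.69.

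Between the foci no gene of the 14497 was called by limma, so 0% stood behind the members' count of 0, with a lowest adjusted p of 0.512 in limma, and no other tool was run. At an unadjusted limma p under 0.05 there were 483 of the 14497 genes, 3 of them members. These were Apoa4, higher in rapamycin foci by 0.79 with a 95% interval of 0.38 to 1.20, Apoa5 by 0.81 with an interval of 0.37 to 1.26 and Apoc2 by 0.71 with an interval of 0.11 to 1.32. Each had an adjusted limma p of 0.985. All 3 rapamycin animals were above all 3 placebo animals in Apoa4 and Apoa5, which makes 2 of 10 members where 3.62% of all genes did so. Of the 10 genes, 9 had a mean above placebo, with a median of 0.37 against 0.011 over all genes, and Apoa1 had -0.22 with an interval of -0.80 to 0.37. Rapamycin animal 3 lay below the lowest placebo animal in Apoa1, Apom, Apob, Apoc1 and Apoc3. Without it the differences were 1.00 for Apoa5 (adjusted p = 0.0638), 1.11 for Apoc2 (adjusted p = 0.0568), 0.83 for Apoa4 (adjusted p = 0.172), 1.30 for Apoa2 (adjusted p = 0.241), 0.87 for Apoc3 (adjusted p = 0.206) and 0.16 for Apoa1 (adjusted p = 0.996). The remaining members had 0.64 for Apom (0.29 with the animal), 0.45 for Apoc1 (0.25 with it), 0.38 for Apoe (0.20 with it) and 0.31 for Apob (0.086 with it), with adjusted p from 0.6 to 0.968. The 3 arrays of this animal gave 1889, 2080 and 2451 for Apoa1, 782, 814 and 1021 for Apoa2, and 775, 854 and 1067 for Apoc2, the last value of each from a new capture. In these 3 genes every array of the animal lay below rapamycin animals 1 and 2. In Apoa4 its arrays gave 380, 457 and 504, a span that holds both of those animals.

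**Figure D4:**
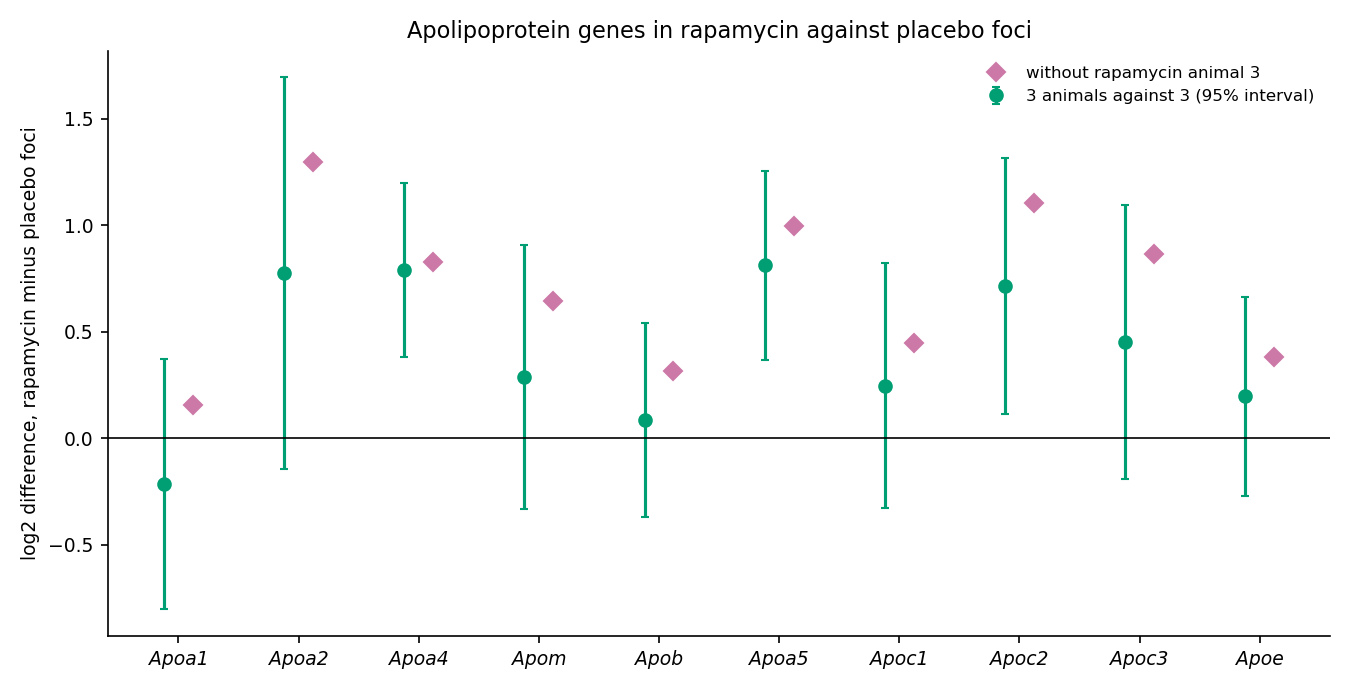
Log2 difference of rapamycin from placebo foci (vertical axis) for each gene, with the 95% interval of the limma fit over 3 animals against 3 (circles) and the difference without rapamycin animal 3 (diamonds). Apoa4, Apoa5 and Apoc2 have intervals above 0, and leaving out the animal moves Apoa1 from -0.22 to 0.16. The intervals are not adjusted for the number of genes, and no gene was called in this comparison.

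The other genes of lipoprotein metabolism were read from lists chosen for their roles. Genes given below by name alone, to complete a count, were named after their values were seen. Of 8 other genes measured that are named or known as apolipoproteins, 6 fell in AAF/PH liver, 5 in placebo foci and 2 in rapamycin foci. None of them rose. Apof, an inhibitor of lipid transfer, fell most in AAF/PH liver, with a difference of -4.48 ± 0.32 (adjusted p = 5.57e-07), and had -1.28 ± 0.32 in placebo foci (adjusted p = 0.0218). Apoh and Apol9a also fell in AAF/PH liver and placebo foci. Apon fell in AAF/PH liver, placebo foci and rapamycin foci, with log2 differences from normal of -3.12, -1.63 and -1.35, and Apoc4 with -1.70, -1.36 and -1.21. Values below are in the same order. Medians of this list were -1.18, -0.84 and -0.53.

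Of 14 genes of VLDL assembly and secretion, 8 fell in AAF/PH liver, 4 in placebo foci and 5 in rapamycin foci, 0 rose, and the medians were -1.08, -0.59 and -0.77. A1cf, the cofactor that edits Apob RNA with Apobec1, fell with -2.15, -1.09 and -1.05. Dgat2, which makes triglyceride for VLDL, fell with -1.68, -1.28 and -1.05, and Cideb, which helps to lipidate VLDL, with -1.57, -1.46 and -1.36. The remaining calls in foci were Apobec1, the editing enzyme, in both kinds and Sar1b in rapamycin foci.

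Of 10 genes of HDL lipidation, remodelling and enzymes, 6 fell in AAF/PH liver, 2 in placebo foci and 3 in rapamycin foci, with medians of -1.29, -0.31 and -0.37 and 0 higher. Lipc, hepatic lipase, fell with -3.15, -1.70 and -1.52, and Lcat, the enzyme that apolipoprotein A-I activates, with -2.14, -1.49 and -1.13. The remaining call in rapamycin foci was Pon1, a paraoxonase of HDL. Of 6 lipases of plasma triglyceride and their regulators, 3 fell in each of the 3 groups and 1 rose in AAF/PH liver, with medians of -0.77, -0.92 and -0.85. Gpld1, a phospholipase carried on HDL, fell with -2.63, -1.43 and -1.19. Angptl4, an inhibitor of lipoprotein lipase, fell in foci, with -3.40 for placebo and -2.77 for rapamycin, and had -0.84 in AAF/PH liver (adjusted p = 0.079). The gene that rose was Lpl, lipoprotein lipase itself, from an intensity of 14.0 to 39.1 (1.49 ± 0.27, adjusted p = 0.00148). Creb3l3 completed the 3 that fell in each group, with Angptl8 in AAF/PH liver in place of Angptl4.

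Of 9 receptors and uptake genes measured, 2 fell and 1 rose in each comparison with normal liver. In AAF/PH liver 12.5% of all genes fell and 7.54% rose, so nothing about the list as a whole was read from that count. The list had medians of -0.33, -0.14 and -0.44 in AAF/PH liver, placebo foci and rapamycin foci. Lrp1, the remnant receptor, fell with -1.20, -1.40 and -1.06, and Lrp2, a related receptor, with -1.03, -1.02 and -0.76. Sort1, a sorting receptor for VLDL, rose by 1.66 in placebo foci and 1.35 in rapamycin foci and had 0.76 in AAF/PH liver (adjusted p = 0.0524). The gene of this list that rose in AAF/PH liver was Mylip, whose product degrades the LDL receptor.

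Of 19 transcription factors known to act on these genes, 13 fell in AAF/PH liver, 5 in placebo foci and 6 in rapamycin foci, and 0, 1 and 2 rose, with medians of -1.29, -0.69 and -0.63. Foxa1, a pioneer factor of liver genes, fell with -1.82, -1.57 and -1.32. Mlxipl, which encodes the carbohydrate sensor ChREBP, fell with -2.28, -1.34 and -1.07. Nr1d1, the clock repressor REV-ERBα, which represses Apoc3, rose by 2.10 in placebo foci (adjusted p = 0.000928) and by 1.39 in rapamycin foci (adjusted p = 0.0208). In AAF/PH liver Nr1d1 had 0.70 (adjusted p = 0.14). Foxa3, Rxra and Nr1h4, the bile acid receptor, were the other factors that fell in placebo foci, and Nr0b2 was the other that rose in rapamycin foci. In AAF/PH liver Nr0b2 was among those that fell (-1.47, adjusted p = 0.0155).

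The same direction held for other proteins that hepatocytes secrete. Of 14 such plasma protein genes, 12 fell in AAF/PH liver, 6 in placebo foci and 2 in rapamycin foci, with medians of -0.97, -0.81 and -0.53 and 0 higher, beside apolipoprotein medians of -2.30, -1.48 and -0.85. Fetub, a fetuin, fell in AAF/PH liver with -2.07 and Plg, plasminogen, with -1.74. Rbp4 and Ttr, the carriers of retinol, fell with -0.99 and -1.24 in AAF/PH liver and with -1.06 and -1.03 in placebo foci. In rapamycin foci the calls were Rbp4 and Serpinc1, antithrombin. The difference between the lists was not tested.

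**Figure D5:**
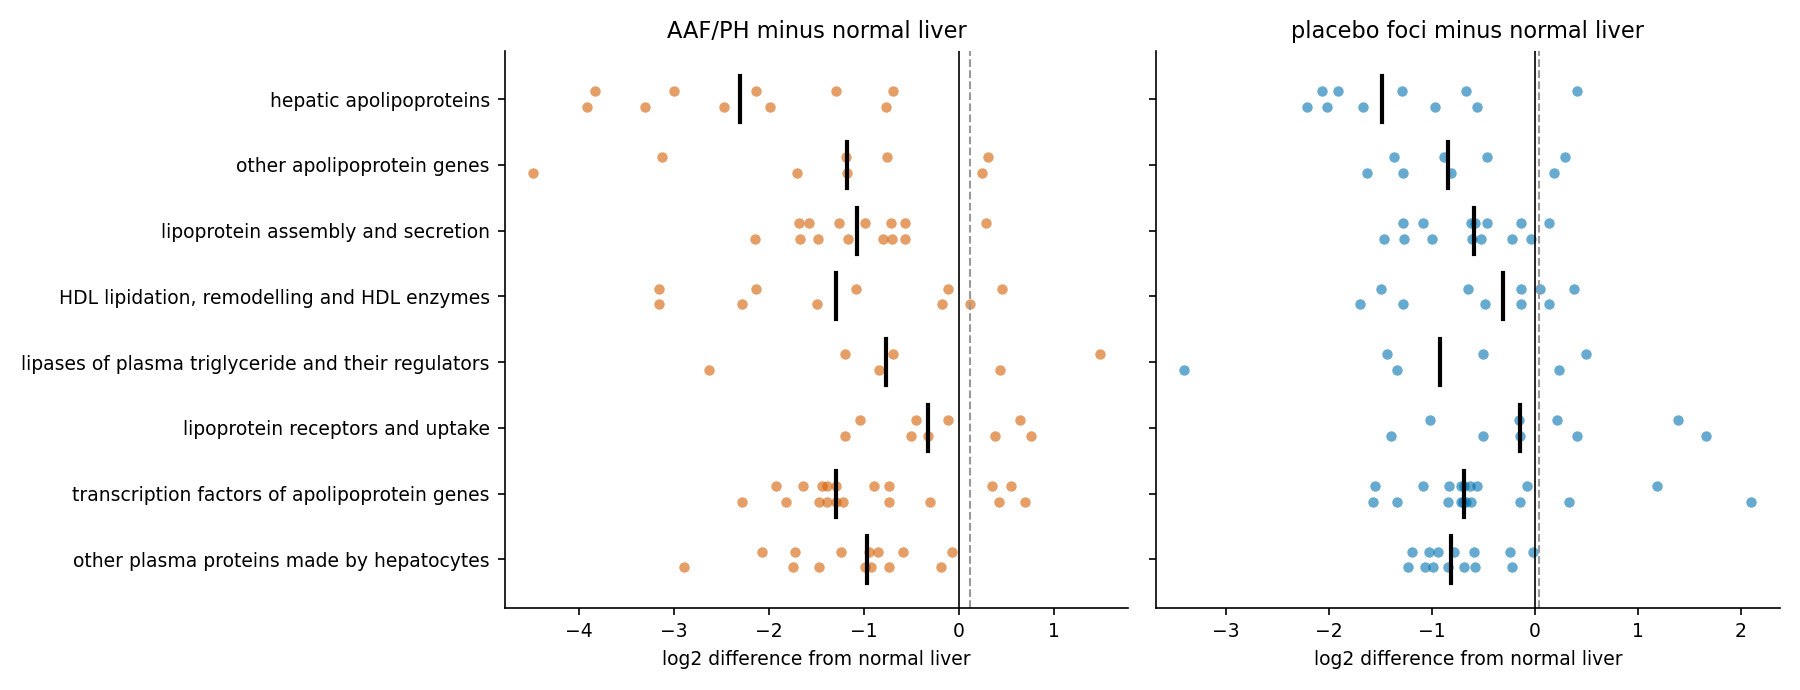
Log2 difference from normal liver (horizontal axes) of each measured gene (points) in the apolipoproteins and in each list, with the list's median (black bar) and the median of all genes (dashed line), for AAF/PH liver and placebo foci. The apolipoproteins have the lowest median of the lists drawn, -2.30 and -1.48. In rapamycin foci, not drawn, their median was -0.85 and that of the list of lipases was also -0.85.

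Markers of hepatocytes and of other cell types were read beside these results. The shares of all genes called against normal liver, given above for the members, stand behind these counts as well. Summed over 8 hepatocyte markers, intensity ran from 21008 to 23814 in normal liver, 12728 to 14587 in AAF/PH liver, 12689 to 14452 in placebo foci and 11543 to 17954 in rapamycin foci, and 4 (Alb, Ttr, Hnf4a and Asgr2), 5 (Ttr, Cps1, Asgr1, Asgr2 and Cyp2e1) and 3 (Asgr1, Asgr2 and Cyp2e1) of them fell. The fall of the sum in AAF/PH liver lay mainly in Alb (group level 8147 to 4503) and Ttr (7228 to 3070). Of the 4 that did not pass there, Tat had 0.90 ± 0.42 (514 to 956, adjusted p = 0.145), Cps1 0.084, Asgr1 -0.28 and Cyp2e1 -0.38. Alb, serum albumin, had a difference of -0.86 ± 0.16 in AAF/PH liver and -0.24 ± 0.16 in placebo foci. Of 6 bile duct and oval cell markers, 4 rose in AAF/PH liver (Krt19, Epcam, Cd24 and Spp1), 4 in placebo foci (Krt19, Epcam, Cd24 and Cldn7) and 2 in rapamycin foci (Krt19 and Cd24), and their sum ran from 134 to 153 in normal liver, 414 to 603 in AAF/PH liver, 399 to 675 in placebo foci and 189.7 to 424 in rapamycin foci. Of 8 stellate cell and matrix markers, 6 rose in AAF/PH liver, 1 in placebo foci (Col3a1) and 0 in rapamycin foci, and their sum ran from 596 to 801 in normal liver, 1673 to 4493 in AAF/PH liver, 722 to 961 in placebo foci and 546 to 752 in rapamycin foci. Of 10 macrophage markers 2 rose (Adgre1 and C1qb) and 1 fell (Vsig4) in AAF/PH liver, 2 fell in placebo foci (Marco and Vsig4) and 4 in rapamycin foci (Cd163, Marco, Clec4f and Vsig4), and their sum ran from 955 to 1260.1, 1354 to 1462, 919 to 1299 and 609.5 to 977 in the 4 groups. Of 5 endothelial markers Kdr fell in each group, of 2 red cell markers Hbb fell in each and Alas2 in AAF/PH liver, and of 5 lymphocyte, 4 neutrophil and 3 enterocyte markers Nkg7, of the lymphocyte list, was the 1 called, higher in rapamycin foci. The 3 enterocyte markers summed to 43.4 to 58.4 in normal liver, 50.3 to 72.6 in AAF/PH liver, 67.0 to 90.4 in placebo foci and 61.1 to 85.8 in rapamycin foci. No marker stood at 0, since arrays give a signal to every probe set. In these bulk captures fewer hepatocytes and less RNA per hepatocyte cannot be told apart, and the part of other cell types in the apolipoprotein results was not tested.

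For 3 members the most alike genes were looked up, by the root mean square difference of log2 values over the 12 animals after each gene was centred. For Apoc1 these were Ces1d, a carboxylesterase (0.28), Apof (0.29) and Ndrg2 (0.37), and all 3 had differences of -3.68 to -4.48 in AAF/PH liver. For Apoa5 they were Creb3l3, a transcription factor of fasting (0.19), Fga, fibrinogen alpha (0.22), and Serpina3n (0.23), with differences from normal of -1.34, -1.16 and -1.17 in placebo foci and -0.70, -0.48 and -0.59 in AAF/PH liver. For Apoe they were Mettl25, Spin1 and Tfcp2, each at 0.11, with differences from normal of -0.49 to -0.93 over the 3 manipulated groups. These points share the groups, so the likeness is a description only.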

How the data were processed

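Transcript levels were measured on 14 arrays of 12 animals in 4 groups. The values deposited by the authors were array intensities on a linear scale, 1 column per array, and the tools listed per the submitters' processing notes were Partek 6.6 and RMA, whose parts in the work those notes leave unsaid. Further settings are not given in the sources used here. As the design allowed for, log2 was taken, with no pseudocount. The 3 arrays of rapamycin animal 3, a pair on the same RNA and the last on a new capture per the labels, were averaged on the log2 scale. No pair of arrays held identical values. No depth applies to arrays, and the brightest member, at 7454, lay below the brightest probe set of every array (at least 11415).

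Gene symbols came from the platform annotation. Of 28826 probe sets, 15209 had 1 symbol and 306 several, which were not used, and the probe set of highest mean was kept per gene. limma 3.58.1 in R 4.3.3 (lmFit and eBayes, 2-sided, 8 residual and 6.38 prior degrees of freedom) fitted the 4 group means over 14497 genes, with Benjamini-Hochberg adjustment and a threshold of 0.05. P-values set each group difference against the spread between these animals, pooled over the 4 groups and moderated by that of all genes. No test compared the level of 1 gene with that of another, and ratios of neighbours were compared between groups only. Marker sums add intensities of several genes, so brighter genes weigh more in them. Tested on simulated data for AAF/PH against normal liver over 14497 genes, the fit recovered 60% of log2 changes of 1 and 95% of log2 changes of 2, with 9 false calls.

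All 10 members were named. Of each list other than the markers, up to 4 genes were chosen by rule, those of smallest p in AAF/PH and in placebo foci against normal liver. Further genes were named to complete a count, after their values were seen. The rule for the members uses names alone, but members, lists and rules were drawn up with earlier results of these data known. Alternatives changed the normalization, centring, scale, filter, pseudocount, averaging, probe set choice, variance prior, weights, samples fitted and block, and left out each animal in turn. Figures were drawn with matplotlib 3.10.9 and pandas 2.3.3.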

Additional observations from a re-analysis of the deposited data

How the results depend on the processing

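Over 60 differences (10 genes in 6 comparisons) and 25 settings, 1382 of 1500 values kept their direction and side of the threshold. Of the rest, 86 lost a call, 15 gained one and 17 changed sign, the last all in differences that were not called. Many of these settings can change a p-value but not the difference itself, such as leaving out an animal of a group not compared. The tally of kept directions is therefore larger than the number of settings that could turn one. The count of members lower in rapamycin foci than in normal liver, 4, was 2 under a common interquartile range and 2 with only these groups in the fit, and 2 to 6 when 1 animal was left out. It was 2 without normal animal 1 or 3. The count higher in placebo foci than in AAF/PH liver, 5, was 3 to 6 when 1 animal was left out, and the count lower there, 1, was 0 with median centring, 0 with an intensity trend and 0 to 1 without 1 animal. Under a common interquartile range, rapamycin foci minus normal liver was 0.10 for Apob, 0.059 for Apoc1 and 0.31 for Apoe, placebo foci minus AAF/PH liver was -0.20 for Apoe, and rapamycin minus placebo foci was 0.070 for Apoa1. With array quality weights, whose estimate did not fully converge, the last was 0.34. Placebo foci minus AAF/PH liver for Apom was -0.082 with quantile normalization and -0.077 with array quality weights. Leaving out 1 animal gave ranges of -0.092 to 0.57 for Apoa1 in rapamycin foci minus normal liver, -0.032 to 0.21 for Apoe and -0.12 to 0.33 for Apom in placebo foci minus AAF/PH liver, -0.28 to 0.020 for Apoa5 in rapamycin foci minus AAF/PH liver, and -0.51 to 0.16 for Apoa1 and -0.055 to 0.31 for Apob between the foci. The cause of these shifts was not tested. Between the foci, limma called 2 genes of 14497 without placebo animal 3 and 3 without rapamycin animal 3. With the replicate block the members called lower numbered 9 in AAF/PH liver, 7 in placebo foci and 3 in rapamycin foci against normal liver, and those higher than in AAF/PH liver 4 and 6. Deviations of animals with the same number had correlations from -0.68 to 0.38 over 18 pairs, 7 of them over 0.1. Among normal, AAF/PH and placebo animals, those numbered 2 or 3 had 0.18 to 0.35. Those numbered 1 had -0.21 to 0.023. With 3 animals per group these values cannot decide whether the numbers pair animals, and the main fit used no pairing.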
